A study of Mus musculus with 2 samples.

Results

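The enteric glia genes *S100b*, *Sox10*, *Gfap* and *Erbb3* were taken by symbol from the mRNA-seq table of tunica muscularis from the jejunum, that is the outer muscle coat peeled off the mucosa of the mid small intestine. All 4 symbols were listed among the 18159 genes of the table. Enteric glia are neural crest cells that ensheath the neurons and nerve fibres of the gut wall. They release factors that act on neurons, muscle and immune cells, and they can take on a reactive state in which the filament protein GFAP accumulates. None of the 4 transcripts is exclusive to enteric glia, since Schwann cells of incoming nerves carry the same genes, S100B is also made by adipocytes and ERBB3 by epithelium.

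The 2 groups were *Dnmt1*-WT and *Dnmt1*-KO mice on a C57BL/6 background at 15 days of age, with 1 library for each genotype. In the KO mice (smDnmt1-/-;Cre-eGFP/+) *Dnmt1* is deleted by a Cre recombinase that the *Myh11* promoter drives in smooth muscle cells, and the paper gives the WT mice the same Cre-eGFP allele. GEO's strain label, Myh11-cre,-EGFP with Dnmt1lox/lox, is the same for both samples, and so is a further description, which gives the knockout genotype for both. The genotype was therefore taken from the title and the genotype label. Each library stands for several mice of both sexes, and the methods do not say whether their RNA was pooled. *Dnmt1*, the targeted gene, was listed at 11.58 FPKM in the WT library and at 7.58 FPKM in the KO library, in tissue where other cells than smooth muscle keep the gene.

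FPKM are mapped fragments scaled for transcript length and for the size of the library, which allows a rough comparison between genes and between libraries. The scaling does not correct for a different make-up of the RNA in the 2 libraries. Summed over all genes, FPKM came to 429698 in WT and 460845 in KO, so small differences depend on the scaling chosen. The read counts behind a gene are unknown, and with 1 library per genotype no difference below has a replicate check, an error or a p-value. Ratios are those of KO to WT FPKM without rescaling, and a ratio of 2 or more, or 0.5 or less, was taken as a marked difference. In bulk tissue, fewer cells of a type and less RNA per cell cannot be told apart.

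*Gfap* was the gene that differed between the libraries. It encodes the glial fibrillary acidic protein, a type III intermediate filament of astrocytes and enteric glia, and was listed at 4.78 FPKM in *Dnmt1*-WT and 35.36 FPKM in *Dnmt1*-KO. The ratio was 7.40, or 2.89 on the log2 scale. From the lowest of the 4 genes in the WT library, *Gfap* became the highest in the KO library, and its rank among all listed genes went from 9356 to 2076. Of the 16102 genes above 0 FPKM in both libraries, 278 had a ratio as high, *Gfap* included, or 1.73%. Among the 7054 of them that reached 10 FPKM in at least 1 library, 59 did, or 0.836%.

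*Sox10*, the SoxE transcription factor that specifies glia from neural crest and is kept on in mature enteric glia, was listed at 25.16 FPKM in WT and 27.88 FPKM in KO. Its level was thus 10.8% higher in the KO library. *S100b*, an EF-hand calcium-binding protein that glia hold in the cytoplasm and also release, was at 12.65 FPKM in WT and 13.62 FPKM in KO, a ratio of 1.08. *Erbb3*, the neuregulin receptor that has little kinase activity of its own and signals as a partner of ERBB2, was at 7.86 FPKM in WT and 7.56 FPKM in KO, a ratio of 0.962. These 3 genes kept their order, *Sox10* above *S100b* above *Erbb3*, in both libraries.

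**Figure D1:**
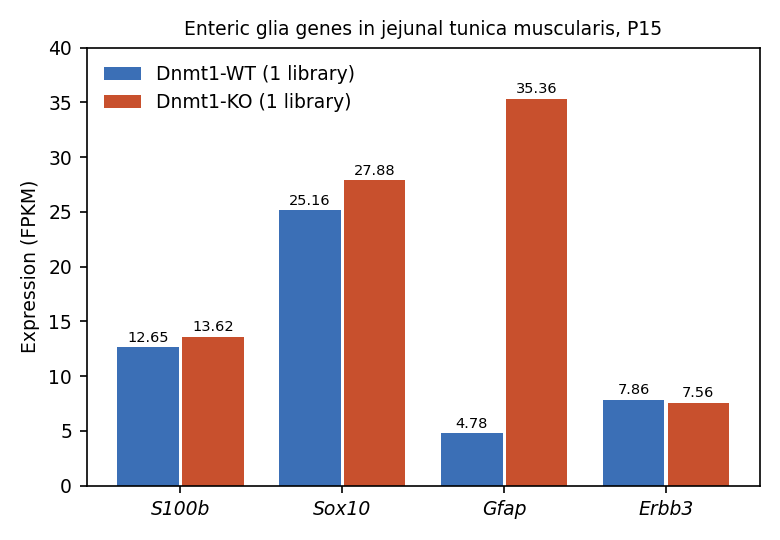
Expression in FPKM (vertical axis) of the 4 enteric glia genes in the *Dnmt1*-WT library (blue bars) and the *Dnmt1*-KO library (red bars), with 1 library per genotype and no error bars. *Gfap* stands at 4.78 and 35.36 FPKM, while the bars of *S100b*, *Sox10* and *Erbb3* are of nearly equal height.

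One of the 4 genes, *Gfap*, had a ratio of 2 or more, and none had a ratio of 0.5 or less. Over all 16102 genes above 0 FPKM in both libraries, the shares were 11.8% and 4.98%, and 50.3% were higher in KO. Among the 12758 genes at 1 FPKM or more in both libraries, as all 4 were, the shares were 5.53% and 2.82%, and 47.1% were higher. The other 3 genes had ratios between 0.8 and 1.25, a range that held 45.2% of all genes and 52.3% of those at 1 FPKM or more, so a ratio near 1 was common in these libraries. The median log2 ratio of the 4 genes was 0.13, against 0.01 for all genes above 0 in both libraries.

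Quotients of 2 genes within a library do not depend on how the libraries are scaled to each other. In the WT library *Sox10* was 5.26 times *Gfap*, and in the KO library it was 0.788 times *Gfap*. *Gfap* went from 0.608 to 4.68 times *Erbb3*. By contrast the quotient of *S100b* to *Sox10* was 0.503 in WT and 0.489 in KO, and that of *Sox10* to *Erbb3* was 3.20 in WT and 3.69 in KO. The quotients with *Gfap* in them differed about as much as *Gfap* itself did.

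In GRCm38, by the GENCODE annotation (release M21), *Gfap* lies on the minus strand of chromosome 11 from 102887336 to 102900912 and *Sox10* on the minus strand of chromosome 15 from 79154908 to 79165240. *S100b* and *Erbb3* are both on chromosome 10, *S100b* on the plus strand from 76253853 to 76261159 in 3 exons and *Erbb3* on the minus strand from 128567523 to 128589652 in 28 exons. All 4 are protein coding. The table also counts the transcript variants seen, and this count was the same in both libraries for each gene, 2 for *Gfap* and *Sox10* and 1 for *S100b* and *Erbb3*. The *Gfap* annotation holds 3 transcripts, with 9, 8 and 4 exons, and FPKM per variant were not analysed here.

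Neighbouring and overlapping genes were listed too. *Dip2a*, on the opposite strand, shares 1731 bases of span with *S100b* but no exonic base, and was at 8.16 FPKM in WT and 8.03 FPKM in KO. The lincRNA gene *Gm26668* spans *Gfap* on the plus strand and likewise shares no exonic base with it. *Ccdc103*, near the 3′ end of *Gfap*, was at 0.35 FPKM in WT and 0.54 FPKM in KO. Beside *Sox10*, *Polr2f* was at 108.98 FPKM in WT and 125.79 FPKM in KO, and beside *Erbb3*, *Pa2g4* was at 48.15 and 52.36 FPKM. None of these neighbours with values in the table had a ratio of 2 or more.

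Start regions of *Gfap* and *S100b* are shown because these genes, one that differed between the libraries and one that did not, had a RefSeq entry among the sequences used here. Each runs from 250 bases before to 50 bases after the RefSeq start (GRCm38.p6), 5′ to 3′ on the strand of the gene. *Gfap* is at chr11:102897151-102897450 on the minus strand and *S100b* at chr10:76253586-76253885 on the plus strand. Capitals mark matches to TTCNNNGAA, the palindrome that STAT factors bind, or to ACAAAG or ACAATG, which Sox factors bind, searched on both strands.

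*Gfap*: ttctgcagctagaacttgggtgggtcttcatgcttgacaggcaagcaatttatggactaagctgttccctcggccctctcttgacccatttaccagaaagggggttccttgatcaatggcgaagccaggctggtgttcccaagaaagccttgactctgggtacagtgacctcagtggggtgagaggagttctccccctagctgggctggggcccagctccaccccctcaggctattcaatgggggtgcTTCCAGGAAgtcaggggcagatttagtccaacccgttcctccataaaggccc

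*S100b*: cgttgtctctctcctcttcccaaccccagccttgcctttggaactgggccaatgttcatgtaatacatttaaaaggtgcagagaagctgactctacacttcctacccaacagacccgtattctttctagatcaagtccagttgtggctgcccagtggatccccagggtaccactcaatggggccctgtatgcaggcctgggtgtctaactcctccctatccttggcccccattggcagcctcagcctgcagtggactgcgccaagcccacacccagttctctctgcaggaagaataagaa

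The *Gfap* region held 1 match to TTCNNNGAA, the letters TTCCAGGAA, from base -2 to base 7 counted from the RefSeq start as base 1. A match was present in 8.30% of the 32851 start regions of the same length, and one to the closer form TTCCNGGAA in 1.15%. The *S100b* region held no such match, and neither region held ACAAAG or ACAATG, of which at least one was present in 28.6% of all regions. Each of the 2 regions had 3 CG dinucleotides, with a median of 7 over all regions, and their GC contents were 55.7% for *Gfap* and 53.7% for *S100b*. STAT3 is a known activator of *Gfap* in astrocytes, and these motifs were picked after the *Gfap* values were seen. Whether STAT factors had a part in the *Gfap* difference was not tested, and sequence outside the window was not searched. The matches are letters in a window and no measure of binding, and CpG methylation was not analysed here. The 9-exon *Gfap* transcript starts at 102897131, downstream of this window, and the 8-exon transcript at 102897200, the start used here.

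Further genes of enteric and peripheral glia were read from a list of 19 symbols, all listed. Of the 18 above 0 FPKM in both libraries, 10 were higher and 8 lower in KO, against 50.3% higher over all genes. The median log2 ratio of the 18 was 0.06, or -0.04 with the libraries divided by their FPKM sums. One had a ratio of 2 or more, *Slc1a3*, a glial glutamate transporter, at 0.99 FPKM in WT and 2.55 FPKM in KO. One had a ratio of 0.5 or less, *Gja1*, the gap junction protein connexin 43, which smooth muscle and other cells also make, at 158.4 FPKM in WT and 72.34 FPKM in KO. *Aqp4*, the astrocyte water channel, was listed at 0 in WT and at 0.1 FPKM in KO. Over all genes, 11.8% had a ratio of 2 or more and 4.98% a ratio of 0.5 or less. No gene of the list came near the ratio of *Gfap*.

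Several of the most used glial markers were close to equal. *Gpr37l1*, a glial receptor, was at 21.46 FPKM in WT and 21.3 FPKM in KO, and *Foxd3*, a neural crest transcription factor, at 6.75 and 7.02 FPKM. *Fabp7*, the brain-type fatty acid binding protein of immature glia, was at 15.66 FPKM in WT and 18.95 FPKM in KO, and *Ngfr*, the p75 neurotrophin receptor, at 42.31 and 50.82 FPKM. *Cdh19*, a cadherin of Schwann cells and their precursors, was lower in KO, with 7.88 FPKM in WT and 6.15 FPKM in KO. *Entpd2*, the ecto-ATPase of enteric glia, stood on the other side, at 17.37 FPKM in WT and 32.8 FPKM in KO, a ratio of 1.89. *Gfap* was thus 0.275 times *Entpd2* in the WT library and 1.08 times *Entpd2* in the KO library.

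**Figure D2:**
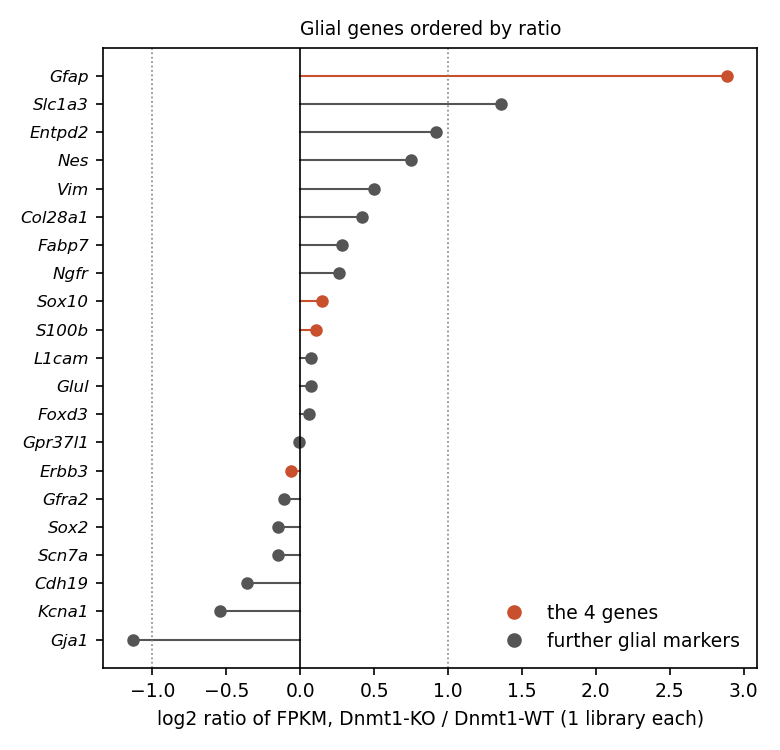
Log2 ratio of FPKM between the *Dnmt1*-KO and *Dnmt1*-WT libraries (horizontal axis, 1 library each) for the 4 enteric glia genes (red) and 17 of the 18 further glial markers above 0 FPKM in both libraries (grey), ordered by ratio; the other one is not reported here. Dotted lines stand at ratios of 0.5 and 2. *Gfap*, at 2.89, lies apart from the next gene, *Slc1a3*, at 1.36, while *Sox10*, *S100b* and *Erbb3* lie near 0.

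Among the filament genes, *Gfap* was again the one that stood out. Of the 4 type III intermediate filament genes, *Vim* (vimentin) was at 372.8 FPKM in WT and 525.48 FPKM in KO, *Prph* (peripherin, in enteric neurons) at 136.82 and 158.83 FPKM, and *Des* (desmin, in muscle) at 1279.03 and 1036.06 FPKM. *Nes* (nestin), a filament of neural progenitors that reactive glia also carry, was at 8.46 FPKM in WT and 14.22 FPKM in KO, a ratio of 1.68. The quotient of *Gfap* to *Vim* was 0.0128 in WT and 0.0673 in KO. Vimentin and nestin are also made by fibroblasts and endothelium, so their levels here are not those of glia alone.

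**Figure D3:**
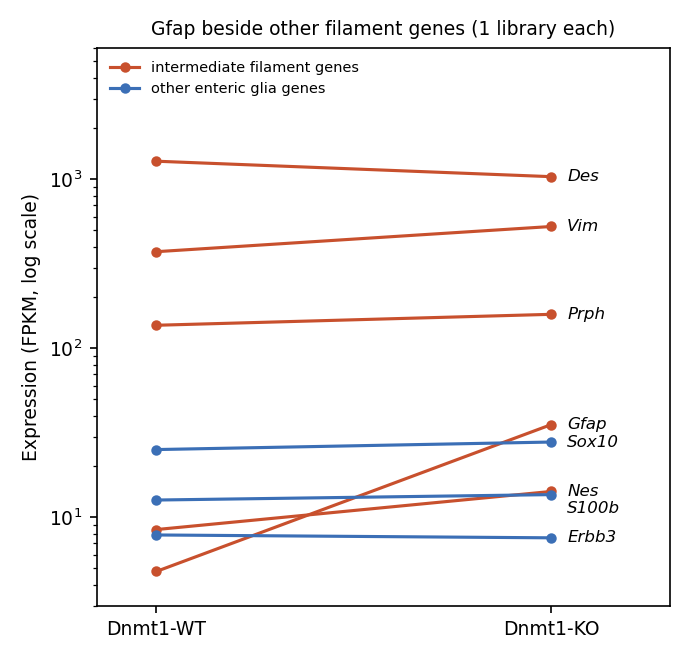
Expression in FPKM on a log axis in the *Dnmt1*-WT and *Dnmt1*-KO libraries (1 each) for intermediate filament genes (red lines) and the other enteric glia genes (blue lines). The *Gfap* line climbs from 4.78 to 35.36 FPKM and crosses those of *Nes*, *S100b*, *Sox10* and *Erbb3*, and no other line has a ratio of 2 or more.

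Relatives of the other 2 families were compared in the same way. *Sox8* and *Sox9*, which form the SoxE group with *Sox10*, were low in both libraries, *Sox8* at 1.93 FPKM in WT and 2.36 FPKM in KO and *Sox9*, which epithelial crypt cells also express, at 0.33 and 1.01 FPKM. *Sox10* was the most abundant SoxE gene in each library. Of the 12 S100 genes above 0 FPKM in both libraries, 11 were higher in KO, against 50.3% of all genes. The median log2 ratio of the 12 was 0.69, and *S100b* had the smallest ratio of the 11. *S100a6*, *S100a10* and *S100a11* had ratios of 2.34, 2.34 and 2.21, where 11.8% of all genes had a ratio of 2 or more.

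*Erbb3* was then read with its ligands and partners. Neuregulins bind ERBB3 or ERBB4, ERBB2 binds no ligand and lends its kinase, and this route supports Schwann cell precursors and other neural crest glia. *Erbb2* was at 6.03 FPKM in WT and 6.56 FPKM in KO, close to *Erbb3* in level, and *Egfr* at 10.35 and 13.14 FPKM. *Erbb4* was listed at 0.06 FPKM in WT and at 0 in KO. Of the ligands, *Nrg1* was at 1.93 FPKM in WT and 1.35 FPKM in KO, *Nrg2* at 1.58 and 1.77 FPKM, and *Nrg3* at 1.27 and 1.53 FPKM. *Nrg4* was under 1 FPKM in both libraries, at 0.18 FPKM in WT and 0.68 FPKM in KO.

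Of the 19 genes on the ErbB list, 17 were above 0 FPKM in both libraries. Among these, 11 were higher and 6 lower in KO, against 50.3% higher over all genes. The median log2 ratio of the 17 was 0.27, or 0.14 over the listed genes at 1 FPKM or more in at least 1 library. Ratios of 2 or more were those of *Nrg4*, *Areg* and *Errfi1*, and ratios of 0.5 or less those of *Egf*, *Btc* and *Lrig1*. Only *Errfi1* and *Lrig1* among these 6 genes exceeded 10 FPKM. Over all genes, the shares with ratios of 2 or more and of 0.5 or less were 11.8% and 4.98%. *Errfi1*, which encodes a feedback inhibitor of ErbB kinases, was at 13.92 FPKM in WT and 38.54 FPKM in KO. *Lrig1*, a membrane protein that promotes the loss of ErbB receptors from the cell, was at 93.53 FPKM in WT and 30.96 FPKM in KO. These 2 negative regulators, which many cell types express, thus stood on opposite sides while *Erbb2* and *Erbb3* were near equal.

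GDNF and endothelin-3 are the other main signals of the enteric neural crest. *Gdnf*, the ligand that smooth muscle and glia provide, was at 7.88 FPKM in WT and 2.59 FPKM in KO, a ratio of 0.329. Its signalling receptor *Ret* was at 20.15 FPKM in WT and 24.99 FPKM in KO. Of the co-receptors of this ligand family, *Gfra1* was at 19.97 FPKM in WT and 16.29 FPKM in KO, *Gfra2*, which glia and neurons express, at 23.19 and 21.5 FPKM, and *Gfra4* at 23.78 and 16.29 FPKM, these 3 lower in KO with ratios above 0.5, and *Gfra3* was higher, at 0.41 FPKM in WT and 1.97 FPKM in KO. *Ednrb*, the receptor of endothelin-3, was at 17.65 FPKM in WT and 17.67 FPKM in KO, and *Edn3* at 11.95 and 12.16 FPKM. In this list of 12 genes, 6 were higher and 6 lower in KO, 2 had a ratio of 2 or more (*Pspn* and *Gfra3*, both under 2 FPKM) and 1, *Gdnf*, a ratio of 0.5 or less. The 11 listed transcription factors of neural crest and enteric progenitors, *Sox10* among them, held none of either. Of all genes above 0 in both libraries, 50.3% were higher, 11.8% had a ratio of 2 or more and 4.98% a ratio of 0.5 or less. *Hand2*, which enteric neurons need to mature and smooth muscle also expresses, was at 145.15 FPKM in WT and 113.44 FPKM in KO, and *Zeb2*, a regulator of neural crest migration, at 10.64 and 12.93 FPKM.

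Genes of myelinating Schwann cells were read because *Sox10*, *S100b* and *Erbb3* mark those cells as well. *Egr2*, the transcription factor that turns the myelin genes on, was at 0.05 FPKM in WT and 0.48 FPKM in KO. *Mag* reached 0.25 FPKM at most, and *Ncmap* was listed at 0 in WT and at 0.31 FPKM in KO. Of 11 such genes above 0 FPKM in both libraries 9 were higher in KO, 4 with a ratio of 2 or more, against 50.3% and 11.8% of all genes. None of these 4 exceeded 4 FPKM. *Mbp*, at 18.36 FPKM in WT and 20.12 FPKM in KO, and *Pmp22*, at 102.92 and 117.96 FPKM, are made by other cells too. Genes of melanocytes and chondrocytes, other cells with *Sox10* or *S100b*, were low, and their summed level was 4.0 FPKM in WT and 2.9 FPKM in KO for melanocytes and 4.4 and 0.6 FPKM for chondrocytes. In WT most of each sum came from 1 gene, *Mitf* at 3.69 FPKM in WT and 1.97 FPKM in KO and *Col9a1* at 4.3 and 0.22 FPKM. Of the genes above 0 in both libraries, 3 of 4 for melanocytes and 2 of 3 for chondrocytes were higher in KO.

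Enteric neurons, the neighbours of the glia, were described by 16 genes. All were above 0 in both libraries, 13 were higher and 3 lower in KO, against 50.3% higher over all genes, and the median log2 ratio was 0.26. *Uchl1*, a deubiquitinase abundant in neurons, was at 227.7 FPKM in WT and 283.24 FPKM in KO, and *Nos1*, the nitric oxide synthase of inhibitory motor neurons, at 34.07 and 27.18 FPKM. *Vip*, a neuropeptide of inhibitory motor neurons and secretomotor neurons, had the only ratio of 2 or more, from 37.12 FPKM in WT to 80.24 FPKM in KO. Over all genes 11.8% had such a ratio.

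**Figure D4:**
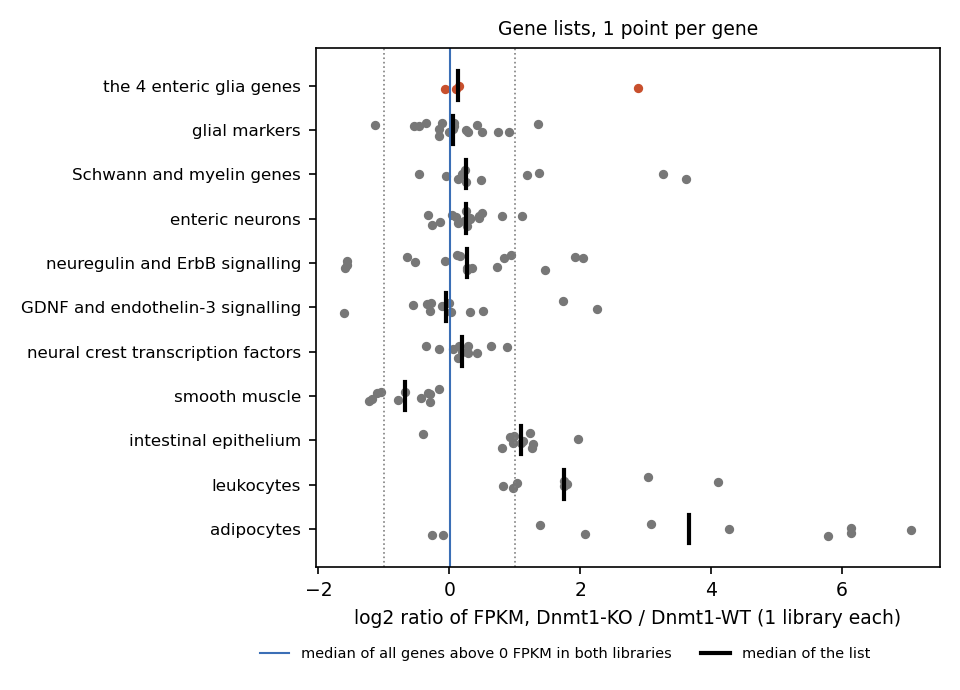
Log2 ratio of FPKM between the *Dnmt1*-KO and *Dnmt1*-WT libraries (horizontal axis, 1 library each) with 1 point per gene above 0 FPKM in both libraries, for the 4 enteric glia genes (red) and 10 gene lists (grey). Black bars are list medians, the blue line is the median of all genes, 0.01, and dotted lines stand at ratios of 0.5 and 2. The median is 0.06 for the glial markers and 0.26 for both enteric neurons and Schwann and myelin genes. It is below 0 for smooth muscle, and above 1 for epithelium, leukocytes and adipocytes.

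Markers of other cell types differed between the same libraries, in which 50.3% of all genes above 0 in both were higher in KO. All 11 smooth muscle genes were lower in KO, with a summed level of 19710.7 FPKM in WT and 13450.8 FPKM in KO. Adipocyte genes were higher for 8 of the 10 above 0 in both libraries, with sums of 168.4 and 1276.7 FPKM. Most of each sum came from 1 gene, *Fabp4*, at 103.72 FPKM in WT and 874.84 FPKM in KO. The defining *Adipoq* was at 0.85 FPKM in WT and 46.71 FPKM in KO, and *Lep* was listed at 0 in WT and at 0.2 FPKM in KO. Epithelial genes were higher for 10 of 11, with sums of 233.3 and 473.0 FPKM and *Epcam* at 7.3 and 13.95 FPKM. The largest part of these sums was *Krt19*, at 96.08 FPKM in WT and 188.37 FPKM in KO. Leukocyte genes were higher for all 8 above 0 in both, with sums of 26.9 and 65.0 FPKM. *Cd3e* and *Cd8a* were listed at 0 in WT and were low in KO, at 0.62 and 0.19 FPKM. The part of these cells in the levels of *Gfap*, *S100b* and *Erbb3* was not tested. The summed level of the 4 enteric glia genes was 50.5 FPKM in WT and 84.4 FPKM in KO, and *Gfap* gave 30.58 of the difference.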

How the data were processed

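One mRNA library per genotype was read from jejunal tunica muscularis. The deposited table gives FPKM per gene symbol, which the authors computed on mm10 (GRCm38). The submitters' processing notes name TopHat 1.4.1 and Cufflinks 2.0.2. The table also counts transcript variants per gene and library (per the file headers, another whole-number value) and the authors' own ratio, which was not used. Symbols missing from the table were looked up by RefSeq synonyms (GRCm38.p6), which matched 2 genes, *Erbin* and *Adgre1*. Log2 ratios used genes above 0 FPKM in both libraries, with no pseudocount, and no test was made because each genotype has 1 library. The 4 genes and 16 gene lists (the 4 genes among them) were chosen with earlier results of these data known. Named genes were the 4 genes, *Dnmt1*, genes of a described list and the 2 genes nearest to each of the 4 on the plane of log2 FPKM in both libraries. Neighbours on the chromosome, *Gm26668* included, fall outside this rule. Alternatives were other scalings of the libraries, pseudocounts and filters on low values. Some genes of the lists count in their totals but are not reported here. Counting past a fold was tested on simulated data. Python 3.11.15, numpy 2.4.6, pandas 2.3.3 and matplotlib 3.10.9 were used.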

Additional observations from a re-analysis of the deposited data

How the results depend on the processing

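The log2 ratios of *S100b*, *Sox10*, *Gfap* and *Erbb3* kept their sign under the 4 scalings and the pseudocounts of 0.1 and 1, with ranges of 0.01 to 0.14, 0.05 to 0.18, 2.65 to 2.92 and -0.16 to -0.03. *Gfap* was the 1 of the 4 genes past a 2-fold difference under each of them. Of 72 values recomputed, 55 stayed within 0.1 on the log2 scale or, for counts, within 1.5 times the reported count. Dividing by the FPKM sum lowered every log2 ratio by 0.101, just past that tolerance, to 0.01 for *S100b*, 0.05 for *Sox10*, 2.79 for *Gfap* and -0.16 for *Erbb3*. The medians became 3.57 for adipocytes, 0.17 for ErbB genes, 0.16 for enteric neurons and -0.04, below 0, for glial markers. A pseudocount of 1 gave 2.65 for *Gfap*, 0.10 for the ErbB median, 3.06 for the adipocyte median, and 860 genes higher and 298 lower by 2-fold in place of 1893 and 802. A pseudocount of 0.1 put the adipocyte median at 3.08. With genes at 1 FPKM or more in at least 1 library, the ErbB median was 0.14, and with 1 FPKM or more in both, 705 genes were higher and 360 lower by 2-fold. Such filters leave fewer genes. No paired analysis was possible because each genotype has 1 library. Depth per gene is unknown, so differences near 0.03 FPKM, the lowest value above 0, carry little weight.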

Other observations

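Genes known to rise in reactive astrocytes were listed after the values of the 4 genes had been seen. All 13 were above 0 FPKM in both libraries, 12 were higher in KO, and 8 had a ratio of 2 or more, *Gfap* included, with a median log2 ratio of 1.15. Without *Gfap*, 11 of 12 were higher, 7 had a ratio of 2 or more and the median was 1.12, while over all genes above 0 in both libraries 50.3% were higher and 11.8% had a ratio of 2 or more. *Lcn2*, a siderophore-binding protein, was at 0.47 FPKM in WT and 14.28 FPKM in KO, *Serpina3n*, a protease inhibitor, at 2.89 and 15.6 FPKM, *Cxcl10*, a chemokine, at 0.59 and 6.51 FPKM, and *Timp1*, an inhibitor of matrix proteases, at 5.93 and 16.89 FPKM. *S1pr3*, a sphingosine phosphate receptor, was lower, at 22.45 FPKM in WT and 19.92 FPKM in KO. Epithelium, leukocytes, fibroblasts and smooth muscle can express these genes too, and their part was not tested.

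A list of the IL-6 family and the STAT3 route, likewise chosen after those values were seen, was mixed. Of its 17 genes above 0 in both libraries 10 were higher and 7 lower in KO, against 50.3% higher over all genes. The median log2 ratio of the 17 was 0.17. A ratio of 2 or more was found for 3 of them, *Lif*, *Osm* and *Osmr*. A ratio of 0.5 or less was found for 1, *Il6*. Over all genes, the shares were 11.8% and 4.98%. The ligands *Lif*, at 0.14 FPKM in WT and 0.73 FPKM in KO, and *Osm*, at 0.03 and 0.07 FPKM, were low in both libraries. *Stat3* was at 43.19 FPKM in WT and 56.05 FPKM in KO, and *Socs3*, a feedback target of STAT3, at 7.07 and 8.99 FPKM. *Osmr*, the oncostatin M receptor, was at 4.23 FPKM in WT and 9.38 FPKM in KO. *Cntf*, the ciliary neurotrophic factor of Schwann cells and astrocytes, was listed at 0 in WT and at 1.02 FPKM in KO. Among the lower genes, *Jak2*, a kinase of these receptors, was at 14.41 FPKM in WT and 8.78 FPKM in KO, *Il6ra*, the IL-6 receptor, at 8.47 and 5.16 FPKM, and the ligands *Clcf1* at 6.96 and 4.73 FPKM and *Il6* at 0.27 and 0.1 FPKM.

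By distance between log2 FPKM in the 2 libraries, the genes nearest to *Gfap* were *Defa22* (3.9 FPKM in WT and 33.13 FPKM in KO, distance 0.308) and *Gpd1* (4.22 and 29.27 FPKM, distance 0.327). The genes nearest to *Sox10* were *Apip* and *Myh10*, to *S100b* *Faim2* and *Cyp20a1*, and to *Erbb3* *Nup188* and *Magi1*, all within a distance of 0.02. With 2 libraries this measure holds only a level and a ratio.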
